A study of Homo sapiens with 9 samples.

Results

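The aminoacyl-tRNA synthetases described here are 35 genes taken by name, 19 for the enzymes of the cytosol and 16 for those of mitochondria (the symbols ending in 2), out of 60230 genes in the deposited tables. All 35 were found by identifier and all 35 passed the filter on low counts, which kept 17307 genes. They were measured by RNA sequencing of poly(A) RNA in the human lung cancer cell line NCI-H358 in 3 states, with 3 libraries each. Parental cells were sensitive to sotorasib, a targeted cancer drug, and are taken as untreated since their labels name no drug. NCI-H358-R, a resistant line grown out of the parental cells in 250 nM sotorasib over about 2 months and then kept in the drug, was profiled with no drug (off drug) and again 4 days after dosing with 250 nM (on drug). With 1 resistant line, resistance and any other difference between the 2 lines cannot be told apart, and how long the off-drug cells had gone without sotorasib is not stated. The submitters call the 3 libraries of a state biological replicates without naming separate cultures, and the p-values cover only the spread among them, part of which may be technical.

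An aminoacyl-tRNA synthetase joins an amino acid to its tRNA, the step that sets which amino acid a codon is read as. Cytosolic enzymes charge the tRNAs used by cytosolic ribosomes, several of them bound together in a multisynthetase complex, while a separate nuclear-encoded set is imported to charge the tRNAs of the mitochondrial genome. GARS1 and KARS1, the glycyl and lysyl enzymes, serve both compartments from 1 gene each, QARS1 is the cytosolic glutaminyl enzyme, and EPRS1 charges both glutamate and proline. When amino acids run short, uncharged tRNA activates the kinase GCN2 (gene EIF2AK4), translation of the transcription factor ATF4 rises, and ATF4 raises genes of amino acid synthesis, uptake and tRNA charging through a DNA element bound with C/EBP partners. Among cytosolic synthetases, 12 are commonly described as ATF4-responsive (AARS1, CARS1, EPRS1, GARS1, IARS1, LARS1, MARS1, NARS1, SARS1, TARS1, WARS1 and YARS1) and 7 are not (FARSA, FARSB, HARS1, KARS1, QARS1, RARS1 and VARS1).

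Total counts per library ran from 25698500 to 34727826. The on-drug libraries detected more genes (24189 to 24360) than the other 6 (22079 to 22957) and had higher TMM scaling factors (1.113 to 1.124, others 0.917 to 0.972). Fits with library size only, which leave out these factors, are given below. The part of the detected genes in the differences was not tested. Levels are given in TPM (transcripts per 1000000), which is scaled for transcript length. The 5 epithelial markers were high in all libraries, summing to 3420 to 4080 TPM in parental, 3470 to 3960 off drug and 2030 to 2740 on drug. The 5 leukocyte markers summed to 38 to 42.6 TPM in parental, 49.7 to 60.9 off drug and 7.42 to 8.19 on drug. Most of that was CD68, at 36 to 56.1 TPM in parental and off-drug libraries and 5.7 to 6.19 on drug, while PTPRC and CD3E, which define leukocytes, were at 0 to 0.0662 TPM. Summed levels of the 5 fibroblast markers were 6.51 to 8.65 TPM in parental, 4.24 to 5.66 off drug and 17.2 to 18.4 on drug. Most of that was COL1A1, at 6.51 to 8.65 TPM in parental, 3.71 to 5.37 off drug and 15.2 to 16.1 on drug. COL3A1 was at 0 in all parental and off-drug libraries and at 0.908 to 1.18 TPM on drug. Summed levels of the 4 endothelial markers were 1.53 to 4.75 TPM throughout. The part of these markers in the results was not tested. Changes below are log2 fold changes ± SE from edgeR's quasi-likelihood test on counts, and a gene is called where p, adjusted by Benjamini-Hochberg across the 17307 genes, is below 0.05; values per library are CPM (counts per 1000000) after TMM scaling. In bulk RNA, fewer cells with a transcript and less of it per cell cannot be told apart.

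The C/EBP-ATF response element is shown here because ATF4 is described as acting through it. Its use at each of the 12 ATF4-described genes was not tested. Its core, written TGATGNAA, was searched on both strands of RefSeq promoter windows (GRCh38.p14, 250 bases before to 50 after a start). Windows were found for 16 cytosolic and 14 mitochondrial genes, and a gene counted once whichever of its windows held a match. A match stood in 7 of 10 genes of the ATF4-described set (70.0%), in 0 of 6 other cytosolic genes and in 1 of 14 mitochondrial genes, YARS2. Over all 27305 genes with a window the share was 4.46%. EPRS1, SARS1 and WARS1 had a window without a match, and LARS1 and YARS1 had no window. Among the genes around the ATF4 pathway described below, 6 of 22 with a window held a match (27.3%), ASNS among them. AARS1, CARS1, IARS1, MARS1 and TARS1 share the same 8 letters, the reverse complement of the 8 in NARS1. Below are the stretches on the transcript strand, 5′ to 3′, with the match in capitals, and ASNS (asparagine synthetase) for comparison, whose element is well described.
AARS1, chr16:70289646-70289733, minus strand: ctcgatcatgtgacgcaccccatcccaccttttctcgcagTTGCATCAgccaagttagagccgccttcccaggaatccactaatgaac
CARS1, chr11:3057418-3057465, minus strand: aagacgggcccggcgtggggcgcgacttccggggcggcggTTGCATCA
GARS1, chr7:30594805-30594877, plus strand: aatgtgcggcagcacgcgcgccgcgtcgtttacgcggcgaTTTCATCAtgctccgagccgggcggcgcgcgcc
IARS1, chr9:92293698-92293750, minus strand: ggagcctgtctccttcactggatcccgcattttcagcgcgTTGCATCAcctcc
MARS1, chr12:57488024-57488071, plus strand: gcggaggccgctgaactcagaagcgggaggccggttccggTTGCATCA
NARS1, chr18:57621815-57621876, minus strand: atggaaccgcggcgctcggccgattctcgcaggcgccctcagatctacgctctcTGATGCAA
TARS1, chr5:33440925-33440974, plus strand: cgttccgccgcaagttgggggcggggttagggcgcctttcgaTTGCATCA
YARS2, chr12:32756047-32756134, minus strand: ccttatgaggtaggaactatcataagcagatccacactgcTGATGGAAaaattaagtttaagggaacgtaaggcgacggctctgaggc
ASNS, chr7:97872429-97872516, minus strand: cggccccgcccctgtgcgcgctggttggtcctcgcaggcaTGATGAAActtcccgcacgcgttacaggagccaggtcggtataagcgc
Counted from the RefSeq start, the match began 187 bases upstream in AARS1, 33 in GARS1, 13 in IARS1, 197 in YARS2 and 68 in ASNS. It spanned the start in CARS1 and MARS1 and lay just past it in TARS1 and NARS1. These are letters in a window, not measured binding.

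In parental cells most cytosolic enzymes stood above the mitochondrial ones in TPM. By mean, IARS2 was above cytosolic YARS1, VARS1, FARSA, CARS1, HARS1 and FARSB. NARS2 was above HARS1 and FARSB, and RARS2 and HARS2 were above FARSB. SARS1, the seryl enzyme, had the highest level of all 35, at 323, 319 and 318 TPM, followed by WARS1 (153 ± 14.8, SD, n = 3), AARS1 (150 ± 7.31), TARS1 (147 ± 7.27) and MARS1 (144 ± 5.94), whose libraries overlapped. FARSB, which encodes the beta subunit of phenylalanyl synthetase, was lowest among cytosolic genes at 13.5 ± 0.79 TPM, below its alpha partner FARSA at 41.6 ± 3.63. Among mitochondrial enzymes IARS2 (isoleucyl, 50.5 ± 0.694 TPM) and NARS2 (asparaginyl, 38.6 ± 7.06) led, and the other 14 lay between 3.2 (AARS2) and 16.7 (RARS2) TPM. PARS2, the mitochondrial prolyl enzyme, had the lowest TPM averaged over the 3 states, at 3.82 ± 0.565 parental, 3.75 ± 0.241 off drug and 5.88 ± 0.781 on drug.

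Summed over the 19 cytosolic genes, levels were 1810 to 1966 TPM in parental, 2312 to 2603 off drug and 1158 to 1412 on drug, so the 3 states did not overlap. The 12 ATF4-described genes held most of that sum, at 1403 to 1532, 1759 to 1951 and 697 to 824 TPM. The other 7 summed to 407 to 434, 552 to 651 and 461 to 588 TPM, with off-drug and on-drug libraries overlapping. Mitochondrial enzymes summed to 204.5 to 220.1, 244.9 to 272.9 and 260.3 to 289.2 TPM. The cytosolic sum was thus 8.85 to 9.01 times the mitochondrial one in parental, 9.34 to 9.8 times off drug and 4.45 to 4.88 times on drug.

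**Figure D1:**
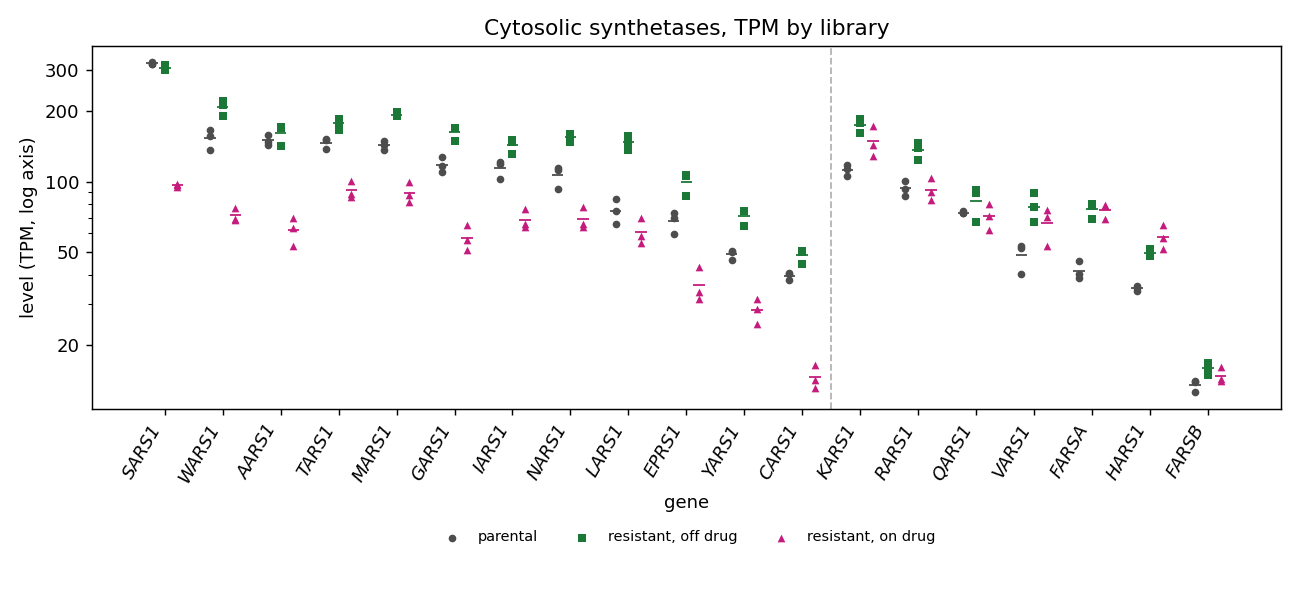
Level in TPM (log axis) of the 19 cytosolic synthetase genes in each library, with a short line at the mean of each state; genes left of the dashed line are the 12 described as ATF4-responsive. On-drug libraries (triangles) lie below all others in 11 of those 12, LARS1 being the exception where 1 on-drug library (69.9 TPM) lies above a parental one (65.8 TPM), while those of the 7 on the right overlap the parental libraries or lie above them.

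NCI-H358-R on drug was compared with the same line off drug to ask what differed under the drug. Cytosolic synthetases fell: 18 of 19 were lower and 0 higher, with a median of −1.30, where 31.2% of all genes tested were called lower, 31.4% higher, and the median of all genes was 0.02. All 12 ATF4-described genes fell at least 2-fold (11.3% of all genes did), by between −2.06 (CARS1) and −1.15 (NARS1). The 7 others ranged from −0.60 (RARS1) to −0.02 (HARS1), so the ranges did not meet. The lists were chosen with earlier results of these data known, so this parting is described only. No cytosolic gene rose 2-fold, which 13.5% of all genes did. In 18 of 19 cytosolic genes every on-drug library was below every off-drug one, as in 33.4% of all genes. Mitochondrial enzymes did not move together: 4 fell, 3 rose and 9 were not called, with a median of 0.01. The same 7 had libraries that did not overlap (34.3% of all genes lay wholly above). This contrast between the compartments is described and was not tested as such.

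CARS1, the cysteinyl enzyme (ENSG00000110619.18, GRCh38 chromosome 11, 3000922 to 3057613), changed most among the 35. It was measured at 136, 130 and 130 CPM off drug and at 32.8, 30.4 and 32 CPM on drug, a fall of −2.06 ± 0.08 (adjusted p = 2.8e-12). The fold was 0.241, and no on-drug library came near an off-drug one. SARS1 (ENSG00000031698.13, chromosome 1, 109213918 to 109238169), the member with the highest TPM off drug, went from 531, 526 and 562 CPM to 135, 148 and 139 CPM (−1.94 ± 0.08, adjusted p = 5.2e-12). GARS1, the enzyme that charges glycine in both compartments, went from 370, 367 and 348 to 116, 102 and 108 CPM (−1.73 ± 0.08, adjusted p = 2.5e-11). In neither gene did the states overlap.

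WARS1, the tryptophanyl enzyme, is also an interferon-gamma-induced gene, so it is set beside that programme. It fell from 292, 299 and 282 CPM to 89.7, 84.1 and 91.9 CPM (−1.72 ± 0.07, adjusted p = 1.2e-11). Of 9 interferon-gamma genes 5 fell and 3 rose between the same states, from −1.30 ± 0.10 (PSMB9, an immunoproteasome subunit) to 3.09 ± 0.83 (CXCL10, a chemokine gene), with a median of −0.39. In the same comparison 31.2% of all genes were lower and 31.4% higher. WARS1 had a lower value than any of the 9. YARS1 (tyrosyl, −1.64 ± 0.08), EPRS1 (−1.63 ± 0.10), AARS1 (alanyl, −1.59 ± 0.08) and LARS1 (leucyl, −1.49 ± 0.09) were close to each other. IARS1 (isoleucyl, −1.34 ± 0.09), MARS1 (methionyl, −1.30 ± 0.07), TARS1 (threonyl, −1.17 ± 0.07) and NARS1 (asparaginyl, −1.15 ± 0.07) followed. The MARS1 gene overlaps DDIT3 on the opposite strand. DDIT3 fell −2.94 ± 0.10, the strand setting of the counting is not given, and its part in the MARS1 value was not tested.

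Among the 7 cytosolic genes outside that set, RARS1 (arginyl, −0.60 ± 0.09), VARS1 (valyl, −0.59 ± 0.09), KARS1 (−0.50 ± 0.08) and QARS1 (−0.41 ± 0.08) fell. KARS1, the second gene that serves both compartments, was measured at 343, 319 and 318 CPM off drug and at 256, 210 and 228 on drug, without overlap (adjusted p = 6.6e-05). FARSA (−0.22 ± 0.08, adjusted p = 0.027) and FARSB (−0.28 ± 0.07, adjusted p = 0.0032) fell least. HARS1, the histidyl enzyme, was not called: 96.9, 98.2 and 102 CPM off drug overlapped 105, 90.8 and 98.3 CPM on drug (−0.02 ± 0.08, adjusted p = 0.86). Scaling by library size alone raises the median of all genes in this comparison by 0.26, and with it HARS1 was higher (0.24, adjusted p = 0.012), FARSA was at 0.04 (adjusted p = 0.67), and FARSB and QARS1 were not called. Over 20 alternative settings, the 12 ATF4-described genes stayed called in every one, at −0.90 or lower, and of the 6 others only RARS1 did. KARS1 (−0.24, adjusted p = 0.055) and VARS1 (−0.24, adjusted p = 0.17) were not called by limma on log2(TPM + 1). FARSA was also lost without off-drug replicate 1 (adjusted p = 0.1) or 3 (0.063), or on-drug replicate 1 (0.062) or 2 (0.091).

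**Figure D2:**
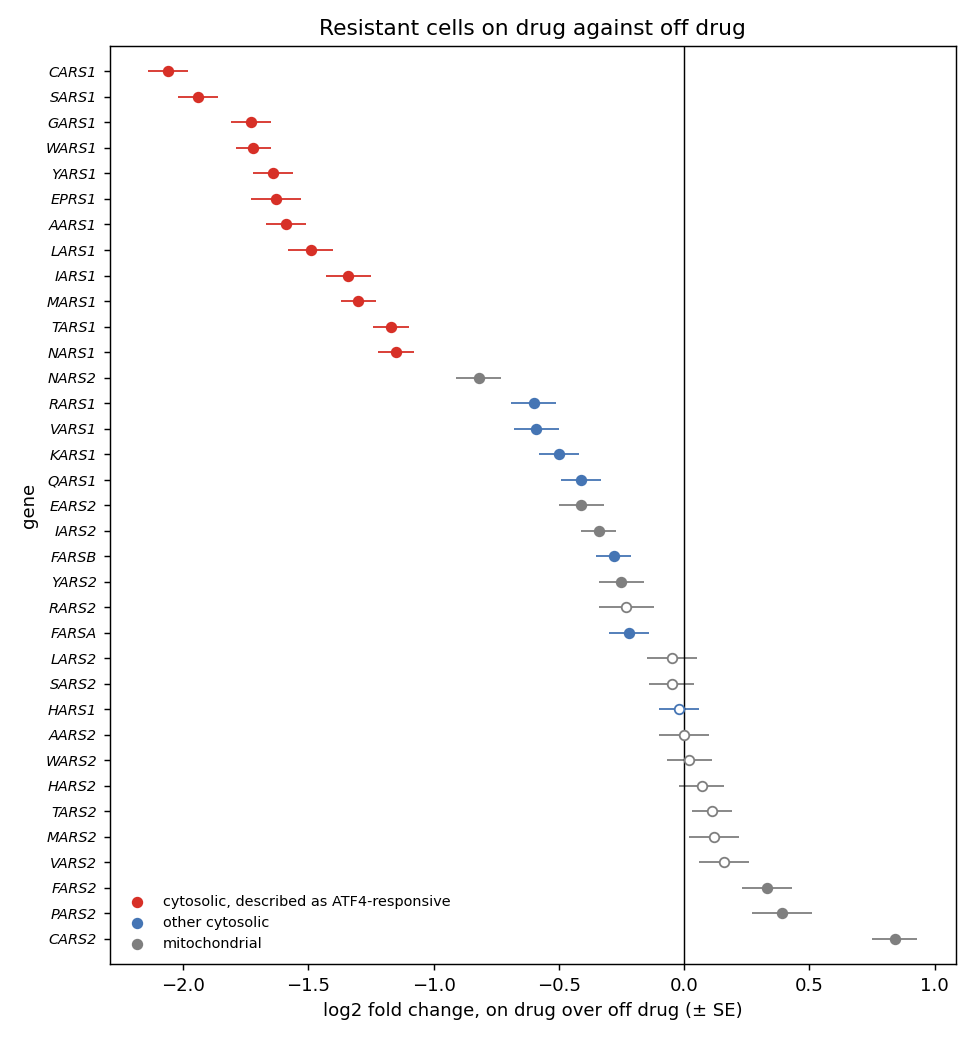
Log2 fold change of resistant cells on drug over off drug for the 35 synthetase genes, with bars for SE and genes ordered by value; filled points were called and open points were not. The 12 ATF4-described cytosolic genes hold the lowest 12 places (−2.06 to −1.15), and CARS2 the highest (0.84).

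CARS2, the mitochondrial cysteinyl enzyme (ENSG00000134905.17, chromosome 13, 110641412 to 110713603), rose most while its cytosolic counterpart fell most. It went from 15, 13.3 and 15.6 CPM off drug to 26.8, 26.8 and 25.3 CPM on drug (0.84 ± 0.09, adjusted p = 7.5e-07). PARS2 (0.39 ± 0.12, adjusted p = 0.013) and FARS2, the mitochondrial phenylalanyl enzyme (0.33 ± 0.10, adjusted p = 0.012), rose as well. PARS2 was measured at 8.14, 6.92 and 8.47 CPM off drug and 11.2, 9.77 and 9.88 on drug, and FARS2 at 10.7, 9.91 and 11.6 and then 12.9, 14.2 and 13.3, both without overlap. Both calls were lost without off-drug replicate 2 (FARS2 0.27, adjusted p = 0.06; PARS2 0.31, adjusted p = 0.066), and that of PARS2 also without on-drug replicate 1 (0.32, adjusted p = 0.056).

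NARS2 (ENSG00000137513.10, chromosome 11, 78435961 to 78574874) was the mitochondrial enzyme that fell most. It was at 75.8, 67.3 and 74 CPM off drug and at 40.1, 45.2 and 37.5 on drug (−0.82 ± 0.09, adjusted p = 7.4e-07), and both asparaginyl enzymes were therefore lower on drug. EARS2, the glutamyl enzyme, went from 23.3, 22.8 and 23 CPM to 19.1, 16.8 and 16 (−0.41 ± 0.09, adjusted p = 0.0013). IARS2 went from 181, 183 and 168 CPM to 141, 135 and 143 (−0.34 ± 0.07, adjusted p = 0.00065). YARS2, the tyrosyl enzyme, fell least (55.2, 51.7 and 55 CPM, then 49.3, 41.5 and 45.3; −0.25 ± 0.09, adjusted p = 0.026). These 3 calls were lost with library size only, where the values were −0.15, −0.09 and 0.01. YARS2 was also lost without off-drug replicate 1 (adjusted p = 0.083) or 3 (0.074), or on-drug replicate 2 (0.11) or 3 (0.072). Library size only called 9 mitochondrial enzymes higher and 1 lower, and limma on log2(TPM + 1) called 6 and 1. CARS2 and NARS2 were called in all 20 alternatives.

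**Figure D3:**
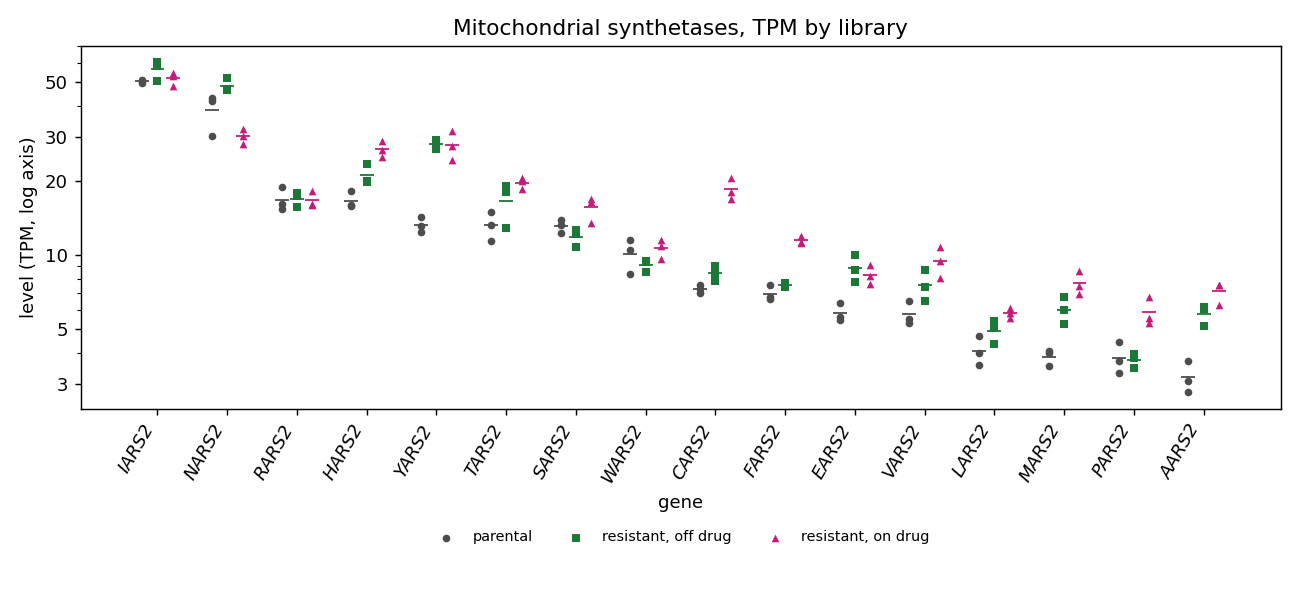
Level in TPM (log axis) of the 16 mitochondrial synthetase genes in each library, with a short line at the mean of each state. All on-drug libraries are above the others for AARS2, CARS2, FARS2, HARS2, LARS2, MARS2 and PARS2. By the count test only CARS2, FARS2 and PARS2 were called higher on drug than off drug. NARS2 is lower on drug than off drug, and YARS2 is higher in both resistant states than in parental cells.

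Resistant cells off drug were set against parental cells to ask what differed without drug. Here the cytosolic enzymes moved the other way and by less. Of 19 genes 15 rose and 1 fell (median 0.40), where 28.4% of all genes were called higher, 26.6% lower, and the median of all genes was 0.00. None of the 35 reached a 2-fold change, which 7.49% of all genes did upwards and 9.73% downwards. In 16 cytosolic genes every off-drug library was above every parental one (31.9% of all genes), and in 1 below (29.9%). Among the 16 mitochondrial enzymes 6 were called higher and 1 lower, and their median was 0.18. Split as above, 10 of 12 ATF4-described genes rose and 1 fell (median 0.35), and 5 of the 7 others rose (median 0.53), so the sets did not part in this comparison.

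LARS1 (ENSG00000133706.19, chromosome 5, 146113038 to 146182660) rose most among cytosolic genes, from 282, 265 and 235 CPM to 464, 473 and 445 CPM (0.82 ± 0.09, adjusted p = 1.6e-06). FARSA followed, at 75.2, 79.3 and 85.1 CPM in parental and 137, 129 and 133 off drug (0.73 ± 0.08, adjusted p = 1.4e-06). Its partner subunit FARSB was at 74.4, 73.5 and 73.9 and then 86.3, 82.8 and 81.2 CPM, without overlap but not called (0.17 ± 0.07, adjusted p = 0.054; called by DESeq2 at adjusted p = 0.042). The genes for the paired subunits of 1 enzyme thus had different values, though their difference was not tested.

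VARS1 (166, 186 and 190 CPM, then 261, 277 and 259) and KARS1 (223, 225 and 221, then 343, 319 and 318) rose 0.56 ± 0.09 and 0.55 ± 0.08. Each was about 1.47-fold higher with no overlap. SARS1 was the cytosolic gene that fell, from 626, 593 and 639 CPM to 531, 526 and 562 (−0.20 ± 0.07, adjusted p = 0.032). It was called in 12 of 20 alternatives and was lost on leaving out parental replicate 1 (adjusted p = 0.085) or 3 (0.07), or off-drug replicate 1 (0.12) or 2 (0.091). AARS1 (−0.04 ± 0.08, adjusted p = 0.73) and QARS1 (0.01 ± 0.08, adjusted p = 0.92) were not called. Of the 15 rises, 11 were called in every alternative; those of CARS1, IARS1, TARS1 and WARS1 (0.21 to 0.29) were not. CARS1 was lost without parental replicate 1 (adjusted p = 0.062) or 2 (0.051) or off-drug replicate 1 (0.073). TARS1 was lost without parental replicate 2 (0.073) or off-drug replicate 1 (0.071) or 2 (0.096), and WARS1 without off-drug replicate 2 (0.052).

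**Figure D4:**
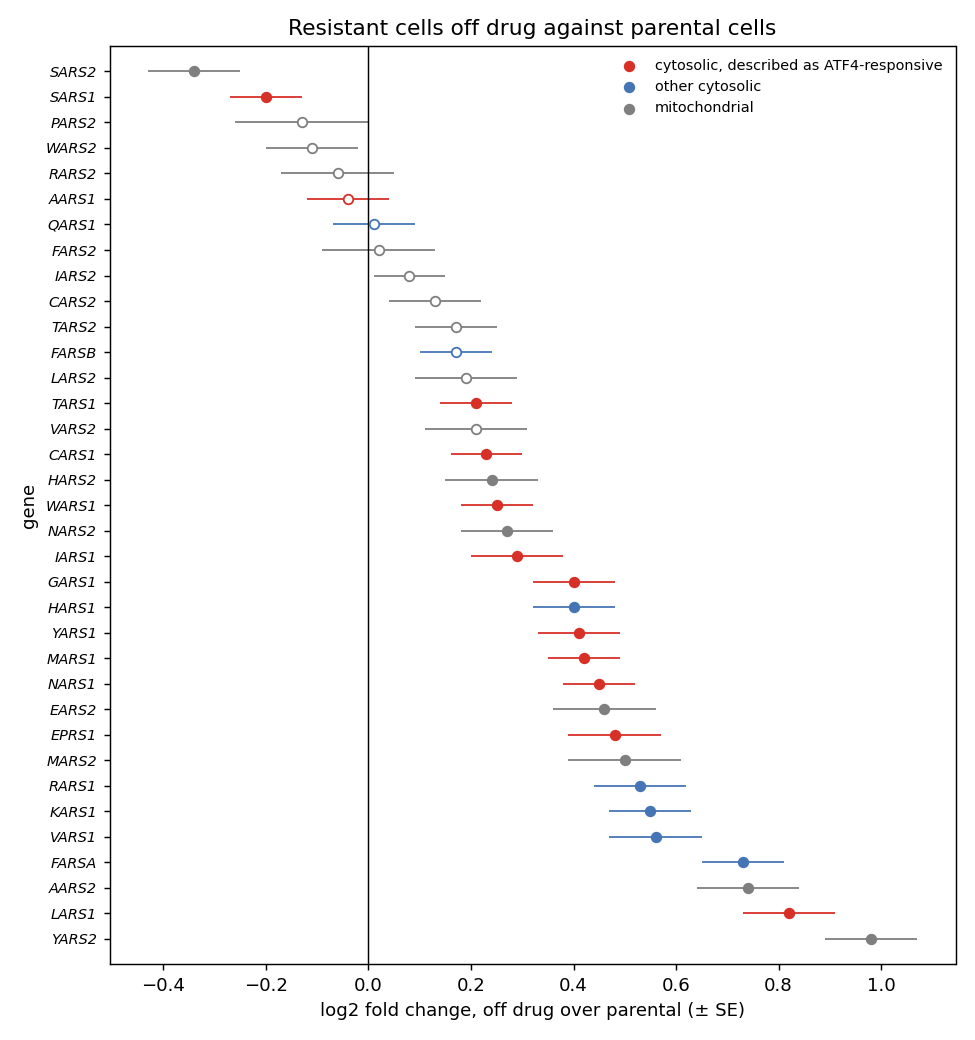
Log2 fold change of resistant cells off drug over parental cells for the 35 synthetase genes, with bars for SE; filled points were called and open points were not. Mitochondrial YARS2 (0.98) and cytosolic LARS1 (0.82) are highest, SARS2 (−0.34) and SARS1 (−0.20) hold the lowest places, and the 3 sets are mixed.

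YARS2 (ENSG00000139131.13, chromosome 12, 32727490 to 32755902) had the largest rise of all 35 genes off drug. Its values were 25.3, 26.1 and 30.8 CPM in parental and 55.2, 51.7 and 55 off drug (0.98 ± 0.09, adjusted p = 3.5e-07). AARS2, the mitochondrial alanyl enzyme, rose from 15.9, 20.4 and 17.6 CPM to 31.4, 30.3 and 28.6 (0.74 ± 0.10, adjusted p = 1.4e-05), whereas cytosolic AARS1 was not called. MARS2 (methionyl, 11.3, 9.66 and 12 CPM, then 15.4, 16.9 and 14.6) rose 0.50 ± 0.11, and EARS2 (17.6, 17.5 and 15.2, then 23.3, 22.8 and 23) rose 0.46 ± 0.10. In all 4 genes every off-drug library was above every parental one, and all 4 were called in every alternative.

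Both seryl enzymes fell off drug. SARS2, the mitochondrial one, went from 25.3, 26.8 and 27.4 CPM to 19.6, 20.5 and 22.6 (−0.34 ± 0.09, adjusted p = 0.0049), a call lost on TPM values (−0.13, adjusted p = 0.33). NARS2 (0.27 ± 0.09) and HARS2 (0.24 ± 0.09, adjusted p = 0.041) rose by less, and HARS2, whose libraries overlapped, was called in 8 of 20 alternatives. NARS2 was called in 16 of 20, not with upper-quartile factors (adjusted p = 0.095) nor without off-drug replicate 1 (0.071) or 3 (0.051).

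On-drug cells were also set against untreated parental cells, which changes both line and treatment and shares libraries with both comparisons above. Cytosolic enzymes were lower in 13 of 19 cases and higher in 2, with a median of −0.88 (32.9% of all genes were lower and 33.4% higher). All 12 ATF4-described genes were lower, from −2.13 (SARS1) to −0.67 (LARS1), and 8 of them at least 2-fold (13.9% of all genes; 13.4% were at least 2-fold higher). On TPM with no filter LARS1 was not called (−0.29, adjusted p = 0.093). Libraries did not overlap for 14 cytosolic genes on the lower side (33.9% of all genes) and 2 on the higher side (35.2%). Of the other 7, QARS1 was lower (−0.40 ± 0.08), FARSA (0.52 ± 0.08) and HARS1 (0.38 ± 0.08) were higher, and KARS1, RARS1, VARS1 and FARSB lay between −0.11 and 0.06 without a call. KARS1 was called higher with library size only (0.28, adjusted p = 0.0075) and on log2(TPM + 1) (0.39, adjusted p = 0.0048), where VARS1 was higher too (0.44, adjusted p = 0.018). QARS1 was not called with library size only (−0.18, adjusted p = 0.068) or on TPM values.

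SARS1 was at 626, 593 and 639 CPM in parental and at 135, 148 and 139 on drug (−2.13 ± 0.08, adjusted p = 1.9e-12). CARS1 went from 109, 111 and 117 CPM to 32.8, 30.4 and 32 (−1.83 ± 0.08, adjusted p = 8.6e-12). AARS1 went from 585, 617 and 597 CPM to 208, 173 and 200 (−1.63 ± 0.08, adjusted p = 1.1e-10). These states lay far apart in each gene, as they did for WARS1 (245, 244 and 247 CPM, then 89.7, 84.1 and 91.9; −1.47 ± 0.07, adjusted p = 6.4e-11). HARS1 went the other way, from 74, 73.3 and 78.8 CPM to 105, 90.8 and 98.3 (adjusted p = 0.00049).

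Mitochondrial enzymes were higher on drug than in parental cells in 8 of 16 cases and lower in 4, with a median of 0.27, where 33.4% of all genes were higher and 32.9% lower. CARS2 led (14.3, 12.8 and 13.3 CPM, then 26.8, 26.8 and 25.3; 0.97 ± 0.09, adjusted p = 1.3e-07). AARS2 went from 15.9, 20.4 and 17.6 CPM to 30.2, 27.5 and 32.2 (0.74 ± 0.10, adjusted p = 8.1e-06). YARS2 went from 25.3, 26.1 and 30.8 CPM to 49.3, 41.5 and 45.3 (0.73 ± 0.09, adjusted p = 4.6e-06). In these 3 genes every on-drug library was above every parental one, and so it was for MARS2, the methionyl enzyme (11.3, 9.66 and 12 CPM, then 18, 16.2 and 16.7; 0.63 ± 0.10, adjusted p = 6e-05).

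FARS2, HARS2, TARS2 and VARS2 were higher by 0.28 to 0.37. The 4 lower ones moved by less than CARS2, AARS2, YARS2 and MARS2. NARS2 went from 63.5, 59.3 and 56.8 CPM to 40.1, 45.2 and 37.5 (−0.55 ± 0.09, adjusted p = 4.9e-05). SARS2 went from 25.3, 26.8 and 27.4 CPM to 20.5, 18.7 and 21.5 (−0.39 ± 0.09, adjusted p = 0.0013). IARS2 went from 165, 163 and 174 CPM to 141, 135 and 143 (−0.26 ± 0.07, adjusted p = 0.0049). RARS2, the arginyl enzyme, had its nearest libraries at the same rounded value (35.7, 29.6 and 31.6 CPM, then 24.7, 29.6 and 25; −0.29 ± 0.11, adjusted p = 0.023). None of these 4 calls held in every alternative, and on log2(TPM + 1) SARS2 was at 0.23 and IARS2 at 0.04. RARS2 was also lost without parental replicate 1 (adjusted p = 0.12) or on-drug replicate 1 (0.072) or 3 (0.075). Of the 8 higher ones 7 did; HARS2 was lost without parental replicate 2 (0.24, adjusted p = 0.05).

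HARS1 and HARS2, the cytosolic and mitochondrial histidyl enzymes, lie head to head on chromosome 5 (140673904 to 140691862, minus strand, and 140691426 to 140699318, plus strand). HARS1 and HARS2 had log2 fold changes of 0.40 and 0.24 off drug over parental, and of −0.02 and 0.07 on over off drug, neither of the latter called. The genes overlap at their starts, so without a stated strand setting their reads may be partly shared.

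A ratio of partner enzymes within a library does not depend on the scaling between libraries. The TPM of each cytosolic enzyme was divided by that of the mitochondrial enzyme for the same amino acid, in 17 pairs in which EPRS1 and FARS2 stand 2 times each. On drug, the mean log2 ratio was below that off drug in 17 of 17 pairs, by −2.87 to −0.14 with a median of −1.33. The cysteinyl pair moved most: log2 CARS1/CARS2 was 2.47, 2.7 and 2.41 off drug and −0.33, −0.45 and −0.25 on drug, so that the mitochondrial transcript exceeded the cytosolic one on drug. The tyrosyl pair reached parity, with log2 YARS1/YARS2 at 1.35, 1.42 and 1.26 off drug and −0.02, 0.01 and 0.04 on drug. For the histidyl pair the states overlapped (1.09, 1.37 and 1.29, then 1.18, 1.04 and 1.12).

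Off drug against parental cells the ratio was higher in 12 pairs and lower in 5, with a median difference of 0.17. Libraries of the 2 states overlapped in 8 of the 17 pairs, among them 3 of the 5 lower ones. The alanyl pair had the largest fall, from 5.74, 5.41 and 5.54 to 4.8, 4.8 and 4.79, and the phenylalanyl FARSA/FARS2 pair the largest rise (0.76). On drug against parental, 15 of 17 pairs were lower, with the histidyl (0.04) and FARSA/FARS2 (0.14) pairs as exceptions. No test was made on the ratios.

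**Figure D5:**
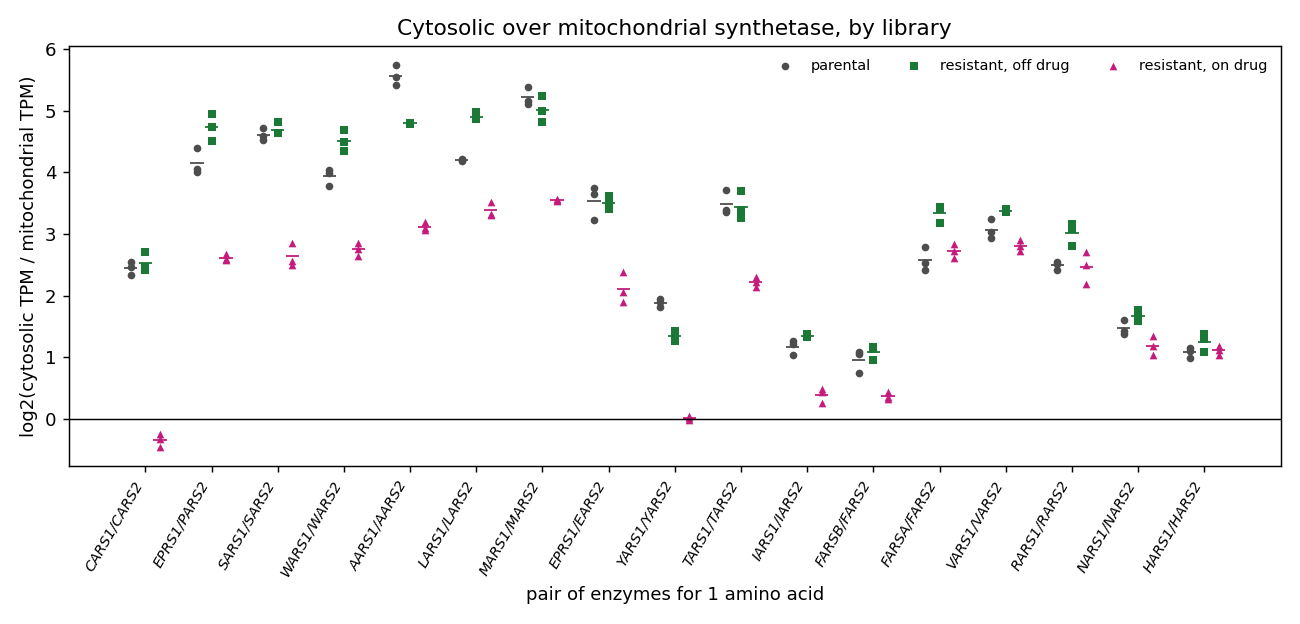
Log2 of cytosolic over mitochondrial TPM within each library for 17 pairs of enzymes that charge the same amino acid, ordered by the difference between on-drug and off-drug means; short lines are state means and 0 marks equal levels. On-drug points lie lowest in most pairs, below 0 for CARS1/CARS2 and at 0 for YARS1/YARS2, while the HARS1/HARS2 points of all states overlap.

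For on drug against off drug, the cytosolic genes were also grouped by membership of the multisynthetase complex and by catalytic class. The ATF4-described set was chosen with earlier results of these data known, so the groupings are described without ranking them. All 7 listed enzymes of the complex fell, from −1.63 (EPRS1) to −0.41 (QARS1), 4 of them at least 2-fold. Over all genes, 31.2% were called lower and 11.3% were at least 2-fold lower. Of the complex's scaffold genes, EEF1E1 fell (60, 60.7 and 69.5 CPM, then 37.2, 50 and 45.8; −0.52 ± 0.10), AIMP2 rose (29.6, 28.9 and 30.3, then 35.7, 37.4 and 34.4; 0.27 ± 0.08) and AIMP1 was not called (−0.17 ± 0.08, adjusted p = 0.091). Class I enzymes, which share a Rossmann-fold catalytic domain, fell in 10 of 10 cases and class II enzymes in 8 of 9, with medians of −1.42 and −1.15. EPRS1, which charges both glutamate and proline, was counted in class I only, so the division is not a clean one.

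Genes around the ATF4 pathway fell on drug in 20 of 24 cases and rose in 1, with a median of −1.41, where 31.2% of all genes were lower and 31.4% higher. The transcript of ATF4 itself was at 677, 668 and 723 CPM off drug and 287, 313 and 305 on drug (−1.19 ± 0.08, adjusted p = 4.6e-09). EIF2AK4, the GCN2 kinase gene, fell −0.82 ± 0.08. ASNS went from 443, 440 and 436 CPM to 37.2, 33.7 and 34.9 (−3.64 ± 0.08), a fall larger than that of any synthetase, and CHAC1, a glutathione-degrading enzyme gene, also changed by −3.64 ± 0.11. ATF5 was the member that rose (1.27 ± 0.11). Off drug against parental, 13 of the 24 were higher and 4 lower (median 0.21; 28.4% and 26.6% of all genes), ATF4 not being called (0.14 ± 0.08, adjusted p = 0.18). The ATF4 pathway's fall on drug was known from earlier results of these data and is no independent support for the synthetase values.

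Other steps of tRNA supply differed from each other on drug against off drug, where 31.4% of all genes were higher and 31.2% lower. In tRNA maturation most genes rose, 14 of 22 being higher and 2 lower (median 0.29). ELAC1, a tRNA 3′ processing enzyme gene, led (1.18 ± 0.16), and TSEN15, a splicing endonuclease subunit gene, was at −0.74 ± 0.09. Of 18 genes for RNA polymerase III and its factors, which transcribe tRNA genes, 6 rose and 4 fell, among them BRF1, a subunit gene of an initiation factor (1.12 ± 0.11), and GTF3C3, a subunit gene of another (−1.25 ± 0.09). Editing factor genes were split, DTD2 rising 0.55 ± 0.09 and DTD1 (−0.32 ± 0.08) and AARSD1 (−0.41 ± 0.11) falling. All 5 cytosolic elongation factor genes, which act after charging, fell by less than the ATF4-described genes (−0.71 to −0.30).

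For mitochondrial translation, 3 of 4 charging partner genes rose on drug against off drug, QRSL1, GATB and MTFMT, by 0.25 to 0.37 (31.4% of all genes were higher). QRSL1, GATB and GATC encode the subunits of the amidotransferase that makes mitochondrial glutaminyl-tRNA, and GATC was not called (−0.09 ± 0.07, adjusted p = 0.3). MTFMT formylates the initiator tRNA. The 78 mitochondrial ribosomal protein genes gave 12 rises and 23 falls, a median of −0.07 (31.4% of all genes were higher and 31.2% lower) and a range from −1.09 (MRPS10) to 0.79 (MRPL33). The elongation factor genes of mitochondria gave 1 rise (TSFM, 0.61 ± 0.10), 1 fall (GFM2, −0.42 ± 0.10) and 2 without a call. The median of the mitochondrial synthetases in the same comparison was 0.01.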

How the data were processed

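Poly(A) RNA of 9 libraries was sequenced, 3 per state. The submitters' processing notes name Salmon 0.14.1, the build GRCh38.p13, FastQC 0.12.1 and bcl2fastq 2.17, with no role stated. No source used here states the annotation release, the strand setting or how genes were summarised. The authors deposited estimated counts per gene, not scaled for depth, and TPM values. Estimated counts were rounded for the count tests. Symbols were found for 60089 of 60230 identifiers, and positions are from GENCODE 29 (GRCh38), matched by identifier. By these positions 12 members overlap another coding gene (AARS2, CARS2, EARS2, HARS1, HARS2, KARS1, MARS1, SARS2, VARS2, WARS1, YARS1 and YARS2). The part of these overlaps in their values was not tested.

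Fold changes came from 1 edgeR 4.0.16 fit in R 4.3.3 of all 9 libraries (TMM, filterByExpr with a minimum count of 10, quasi-likelihood test with 6 residual degrees of freedom), adjusted over 17307 genes. SE was obtained by dividing the size of the log2 fold change by the root of the F statistic. The design assumed plain counts. Alternatives used DESeq2 1.42.0, limma 3.58.1 on log2(TPM + 1) and log2(TPM + 0.1), other scalings and filters, a replicate block, the compared groups alone, and each library left out. Lists are described by counts and medians without a list test. The code was tested on simulated counts. No pair of libraries in a state was identical (lowest chi-square per degree of freedom 4.86).

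Members and lists were chosen with earlier results of these data known. Values per library were given for up to 4 of the largest called rises and falls per class and comparison, GARS1, KARS1, WARS1 and the highest and lowest members. For other lists they were given mainly for ATF4, ASNS and their largest called changes. EIF2AK4, DDIT3, CD68, PTPRC, CD3E, COL1A1 and COL3A1 were added for context.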

Additional observations from a re-analysis of the deposited data

How the results depend on the processing

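With library size only, the split of calls between on-drug and off-drug cells moved from 50.1% higher to 68.5%, with 3585 genes lower. There the cytosolic median was −1.04 with 1 member higher, and the mitochondrial median 0.26 with 9 higher and 1 lower. Against parental cells it gave medians of −0.65 and 0.49, 1 mitochondrial member lower and 64.3% of calls higher (50.4% in the reported fit). YARS2 was at 0.01, FARSA at 0.04 and HARS1 at 0.24 on over off drug.

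Upper-quartile factors gave medians of 0.31 and 0.09 off drug over parental, −1.16 and 0.14 on over off drug (6 mitochondrial members higher, 60% of calls higher), and −0.83 for cytosolic genes on drug over parental. With no filter, SARS1 was not called off drug over parental, leaving 0 cytosolic members lower, and cytosolic medians were −1.24 and −0.83 in the comparisons with on-drug cells.

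On TPM values the calls were 64.6%, 64% and 69.7% higher in the 3 comparisons, against 51.6%, 50.1% and 50.4%. Genes called lower numbered 2529, 2995 and 2828 on log2(TPM + 1), 2531, 2975 and 2802 on log2(TPM + 0.1), and 2671, 3000 and 3162 with no TPM filter. Off drug over parental, cytosolic medians were 0.46, 0.47 and 0.46, mitochondrial medians 0.26, 0.29 and 0.26, and 0 members of either class were lower. On over off drug the medians were −1.1, −1.11 and −1.1 and then 0.25, 0.28 and 0.25, with 6, 5 and 5 mitochondrial members higher and 1 lower in each. On drug over parental they were −0.68 in each and then 0.53, 0.6 and 0.53, with 4 cytosolic members higher with either pseudocount and 1, 1 and 0 mitochondrial members lower. Against the counts, the sign turned for SARS2 on over off drug (0.36, 0.39 and 0.36) and on drug over parental (0.23, 0.24 and 0.23), IARS2 on drug over parental (0.04 in each) and VARS1 there (0.44 and 0.45). The cause was not tested. As ratios of CPM, 3 pairs were lower off drug than in parental cells, against 5 by TPM.

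Leaving out 1 library gave 17 to 18 cytosolic falls on over off drug (median −1.34 to −1.26) and 1 to 3 mitochondrial rises (1 without off-drug replicate 2). It gave 0 to 1 cytosolic falls off drug over parental, a cytosolic median of −0.93 to −0.85 on drug over parental, and 3 to 6 pairs with a lower ratio off drug than parental. RLE factors, DESeq2, the stricter filter and the fits of 2 groups kept all class counts within 1.5 times.

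Same-numbered libraries did not deviate together (correlations of −0.034 to 0.135), so the numbers were not taken as pairs. With the replicate block, 18 cytosolic members fell and 0 rose on over off drug, as without it, and no member's call changed in any comparison. Precision was lowest for the member with the fewest counts, PARS2 (6.92 to 11.2 CPM), whose SE was 0.12 to 0.13.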
